A study of Mus musculus with 13 samples.

Results

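Secreted inflammatory and senescence-associated factors were followed in mouse enterocytes, the absorptive cells of the gut lining, in which casein kinase Iα (CKIα) was deleted in the gut. The 54 genes comprise interleukins, chemokines, colony-stimulating factors, proteases and their inhibitors, IGF-binding proteins, growth factors, prostaglandin enzymes, acute-phase proteins and 2 genes that report on NF-κB activity, Icam1 and Nfkbia. They were named as a list of genes, chosen with earlier results of these data known, and not selected by a threshold on the arrays. Of them, 52 had a probe set annotated to that symbol alone, out of 19938 genes so annotated. Serpine2 and Areg were not analysed here.

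The series holds 13 arrays, each of 1 RNA sample from enterocytes of mice on a 129/SVJ background. Of these, 12 fall into 6 groups of 2: CKIα Het (heterozygous for the knockout), CKIα KO, CKIα Het/p21 KO, CKIα KO/p21 KO, CKIα Het/p53 KO and CKIα KO/p53 KO. No group is free of a CKIα knockout allele, so the heterozygous mice are the reference throughout. The series text calls the deletion gut specific; the Cre driver, the age and sex of the mice and the way enterocytes were isolated are not given in the sources used here. The labels call the 2 arrays of a group biological replicates.

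CKIα phosphorylates β-catenin inside the destruction complex and so starts its degradation, and CKIα loss activates Wnt signalling and p53. Cells that enter senescence can secrete a mixture of cytokines, chemokines, proteases and growth factors, known as the senescence-associated secretory phenotype, much of which is transcribed by NF-κB, AP-1 and C/EBPβ. p53 and its target p21 (Cdkn1a) form 1 of the pathways by which senescent cells stop dividing. In the gut lining many of the same factors are also made by resting epithelium: Ccl25 and Ccl28 recruit lymphocytes, Il15 sustains intraepithelial lymphocytes, and Il18 is stored by enterocytes as a precursor that caspase 1 activates.

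Values are log2 intensities, on which a difference of 1 is a change of 2-fold. The median of an array lay between 4.96 and 5.12 and its 25th percentile between 3.59 and 3.73. Csnk1a1, the gene of CKIα, had values between 10.44 and 10.80 on the 12 arrays; whether its probes lie in the deleted part was not tested, so it does not check the labels. Xist, a transcript of female cells, lay between 3.15 and 3.94 on all replicate 1 arrays and between 8.91 and 10.1 on all replicate 2 arrays. By this gene the replicate 1 arrays read as male and the replicate 2 arrays as female in every group, though no label gives sex. Differences between same-numbered arrays are therefore also given for the members called. The calls that change when the replicate number is a term of the fit are named. Absorptive enterocyte markers had a summed level (the log2 of the summed intensities of 14 genes) between 15.63 and 16.48 on all 12 arrays. By group it was 16.21 to 16.43 in CKIα Het and 16.16 to 16.21 in CKIα KO. With p21 KO it was 16.25 to 16.38 in CKIα Het and 15.63 to 16.29 in CKIα KO. With p53 KO it was 16.43 to 16.48 in CKIα Het and 15.78 to 15.91 in CKIα KO. The summed level of 11 lymphocyte markers was 10.39 to 13.16; levels of different probe sets give no share of cells. In such bulk samples, fewer cells of a type and less RNA per cell cannot be told apart.

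Some members carry NF-κB or AP-1 motifs close to the gene start, and the sequences below show 3 chemokine promoters with an NF-κB motif and the 2 promoters with an AP-1 motif whose genes were called higher in a comparison. Each is the 250 bases before the gene start in RefSeq (GRCm38.p6), 5′ to 3′ on the gene's strand, with matches to the NF-κB consensus or to the AP-1 motif TGANTCA in capitals.
Cxcl1 (chr5:90890995-90891244, plus strand): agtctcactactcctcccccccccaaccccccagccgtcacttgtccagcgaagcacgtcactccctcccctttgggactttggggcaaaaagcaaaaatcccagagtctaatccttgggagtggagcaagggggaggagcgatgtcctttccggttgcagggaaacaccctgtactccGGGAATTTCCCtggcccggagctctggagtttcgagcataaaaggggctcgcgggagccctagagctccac
Cxcl2 (chr5:90903649-90903898, plus strand): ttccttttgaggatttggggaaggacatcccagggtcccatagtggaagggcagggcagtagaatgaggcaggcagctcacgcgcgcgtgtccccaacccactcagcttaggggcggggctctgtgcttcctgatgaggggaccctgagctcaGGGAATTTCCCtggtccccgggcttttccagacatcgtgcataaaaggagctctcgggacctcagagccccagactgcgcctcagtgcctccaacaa
Cxcl10 (chr5:92348890-92349139, minus strand): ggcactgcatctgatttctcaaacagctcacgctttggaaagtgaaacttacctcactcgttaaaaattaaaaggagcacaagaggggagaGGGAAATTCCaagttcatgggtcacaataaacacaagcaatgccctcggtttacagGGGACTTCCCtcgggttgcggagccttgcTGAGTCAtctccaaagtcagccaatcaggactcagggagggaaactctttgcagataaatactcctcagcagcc
Lif (chr11:4257318-4257567, plus strand): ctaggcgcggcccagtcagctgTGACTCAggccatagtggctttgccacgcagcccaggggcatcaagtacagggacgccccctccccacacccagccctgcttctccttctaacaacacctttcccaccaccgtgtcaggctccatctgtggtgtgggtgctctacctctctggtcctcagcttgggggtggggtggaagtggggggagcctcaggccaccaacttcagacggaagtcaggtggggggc
Plaur (chr7:24462233-24462482, plus strand): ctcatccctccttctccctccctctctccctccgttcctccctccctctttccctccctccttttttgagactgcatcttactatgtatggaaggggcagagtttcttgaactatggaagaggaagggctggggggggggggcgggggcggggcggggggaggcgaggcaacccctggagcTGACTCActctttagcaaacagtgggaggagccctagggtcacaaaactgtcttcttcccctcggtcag
Cxcl1 and Cxcl2, neutrophil-attracting chemokines that are neighbours on chromosome 5, carry the same NF-κB letters, and Cxcl10, an interferon-induced chemokine, carries 2 NF-κB matches and 1 AP-1 match. Promoters were matched for 42 of the 52 measured members, with 48 sequences. The NF-κB consensus, on either strand, was found in 10 of the 48, against 3.9% of all 32851 promoters, and TGANTCA in 12, against 6.75%. These 12 belong to 11 genes, because 2 overlapping Serpinb2 sequences hold the same match. The TCF/LEF letters CTTTGAA or CTTTGAT were found in 3, against 7.48%, and the C/EBP letters TTGCGCAA in 1, that of Ptgs2, against 0.164%. A match is only a run of letters. Of the 9 tested members with an NF-κB match, 0 were called in the mean CKIα comparison described below, in which 24.4% of all tested genes were called (15.5% higher and 8.96% lower), and their differences ran from -0.61 to 0.27 with a median of -0.08. Of the 8 tested members with an AP-1 match, Lif was called higher and Mmp12 lower.

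Of the 52 measured members, 22 read below the array median on every array, and 5 of these were too dim to test. Il6, a leading cytokine of the secretory phenotype, lay between 2.60 and 3.22 on the 12 arrays, and Il1a, the alarmin that drives it, between 2.83 and 3.80. Together with Ccl8, Serpinb2 and Hgf they failed the filter on dim genes (at least 2 of 12 arrays above the array's own 25th percentile) and were not tested. The other 47 passed. The tested members among the 22 were Ccl2, Ccl7, Cxcl5, Cxcl12, Csf1, Csf2, Csf3, Plau, Mmp3, Mmp9, Mmp10, Mmp12, Mmp13, Timp1, Igfbp5, Inhba and Saa1. The brightest members were Ccl25 at 10.73 to 11.94, Nfkbia at 8.78 to 9.45 and the angiogenic factor Vegfa at 8.02 to 9.99.

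Few members passed the test in any comparison, and those that did moved in both directions. Differences were tested with limma over 16721 genes, and a member was called at a Benjamini-Hochberg adjusted p under 0.05. With p53 and p21 present, 0 of 47 members were called between CKIα KO and CKIα Het, where 0.0239% of all tested genes were; 5 members had an unadjusted p under 0.05. Without p21, 1 member was called higher (all genes 1.46%) and 0 lower (0.514%), with 11 at an unadjusted p under 0.05. The share of all genes at an unadjusted p under 0.05 was not counted. Counts at that threshold, here and below, are therefore not a result about the members. Without p53, 2 members were called higher (all genes 11%) and 2 lower (6.82%). In the mean of the CKIα effect over the 3 backgrounds, 3 members were called higher (all genes 15.5%) and 2 lower (8.96%). Leaving out CKIα KO/p21 KO replicate 1 raised the number of member calls more than any other setting. That group had the widest spread between replicates (SD 0.34, with 781 genes more than 2-fold apart). Calls over all genes were not counted in that fit, so the rise is not a result about the members. The 5 members called in the mean effect kept their direction in each of the 12 fits that left out 1 array.

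Where many genes were called, the members' share of calls was below that of all genes. The list was chosen with earlier results of these data known, so the shortfall does not measure a depletion. Without p53 the share was 8.51% of members against 17.8% of genes, and for the mean effect 10.6% against 24.4%. Without p21, with 1 member called, the share was 2.13% against 1.97%. A split made after the data were seen kept genes whose 12-array mean lay above the arrays' median. Among them the share was 4 of 23 members (17.4%) against 23.9% without p53. For the mean effect it was 4 of 23 (17.4%) against 33.9%. The median difference over the 47 members was -0.01 (all genes 0.02) with p53 and p21 present, -0.14 (all genes -0.01) without p21 and -0.01 (all genes -0.06) without p53; the last turned to 0.09 after further quantile normalization. For the mean effect it was -0.04 (all genes -0.03). The 95% interval of the difference lay wholly between -1 and 1 for 30 of the 47 members with p53 and p21 present. Without p21 it did so for 29, without p53 for 31 and in the mean effect for 37. Intervals of the other members reached a 2-fold change or lay beyond it. Both CKIα KO arrays lay above both CKIα Het arrays for 12 of the 47 members (all genes 22.3%) and below for 9 (16.8%) with p53 and p21 present, above for 6 (26.9%) and below for 15 (24.3%) without p21, and above for 8 (28.9%) and below for 11 (35.7%) without p53.

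**Figure D1:**
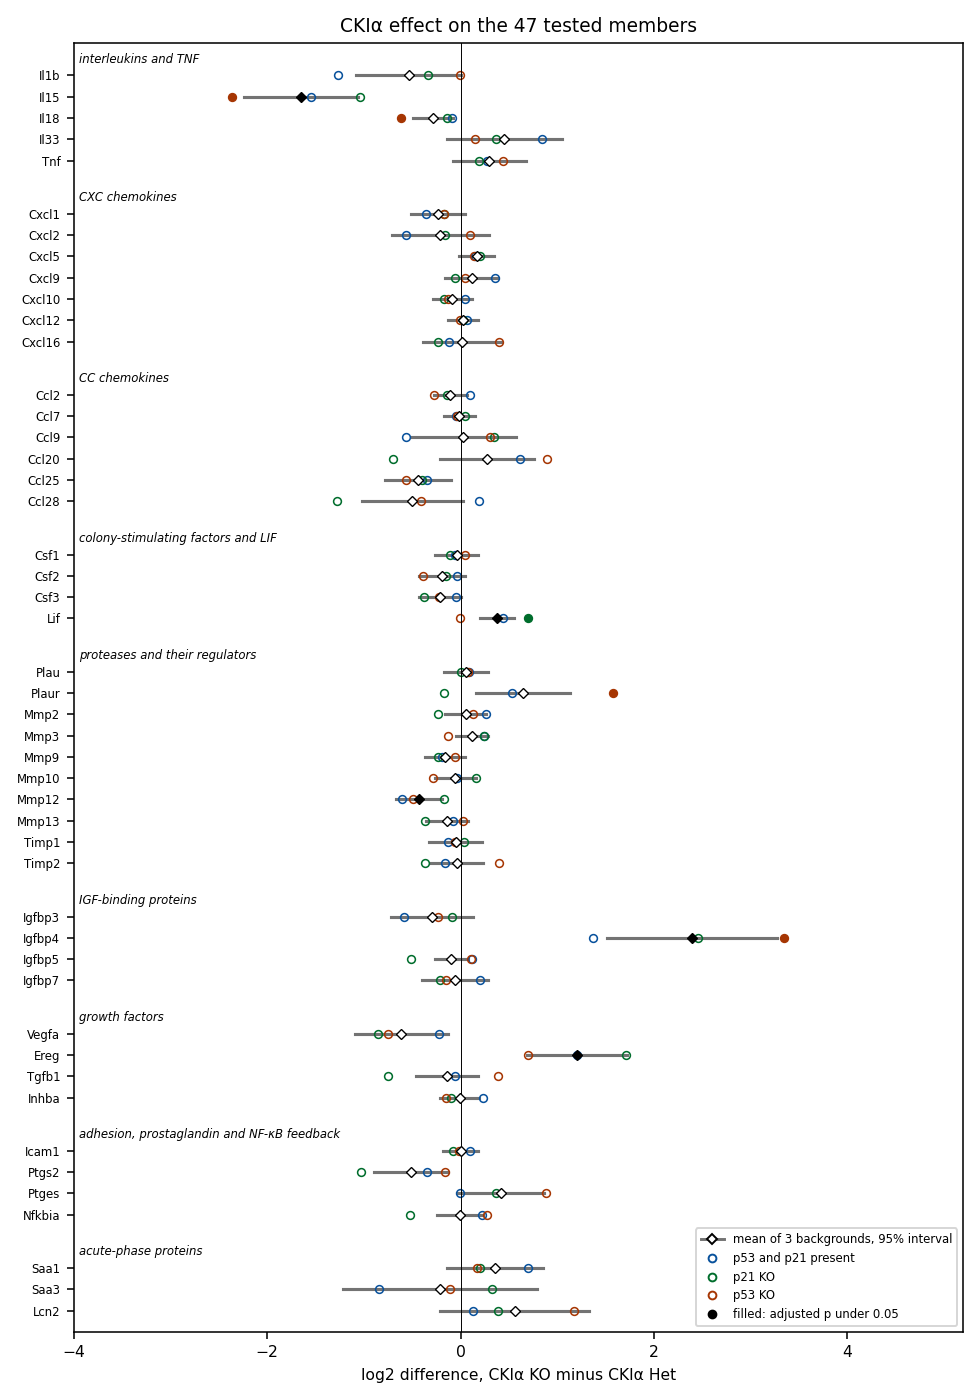
Log2 difference between CKIα KO and CKIα Het for each of the 47 tested members, grouped by role; diamonds show the mean of the 3 backgrounds with its 95% limma interval, circles show each background, and filled symbols are called at an adjusted p under 0.05. Il15 and Mmp12 lie to the left and Igfbp4, Ereg and Lif to the right among the filled diamonds, and 42 diamonds are open.

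Among the interleukins, Il15 fell with CKIα loss. Il15, which sustains intraepithelial lymphocytes and natural killer cells, read 8.47 and 9.21 in CKIα Het, 7.43 and 7.16 in CKIα KO, 7.84 and 8.06 in CKIα Het/p21 KO, 7.68 and 6.13 in CKIα KO/p21 KO, 8.72 and 7.94 in CKIα Het/p53 KO, and 6.15 and 5.77 in CKIα KO/p53 KO. All 6 CKIα KO arrays were below all 6 CKIα Het arrays, a pattern seen in 1.96% of tested genes and in 2 members, Il15 and Mmp12. The reverse pattern, all CKIα KO arrays above all CKIα Het arrays, was seen in 3.74% of tested genes and in 0 members. Averaged over the backgrounds, the Il15 difference was -1.65 ± 0.26 (SE; 3.14-fold lower; limma adjusted p = 0.00335). Without p53 it was -2.36 ± 0.45 (5.14-fold lower, adjusted p = 0.0115). In the other backgrounds the differences were -1.55 ± 0.45 and, without p21, -1.04 ± 0.45, and neither passed the test (limma adjusted p = 0.309 and 0.204).

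The same-numbered arrays of Il15 differed in the same direction in every background: by -1.05 and -2.05 with p53 and p21 present, by -0.16 and -1.93 without p21, and by -2.57 and -2.16 without p53. The call without p53 was lost when either CKIα Het/p53 KO replicate 1 (limma adjusted p = 0.0809) or CKIα KO/p53 KO replicate 2 (0.0708) was left out. The difference between the effects with and without p53 was -0.82 ± 0.64 and did not pass (adjusted p = 0.559). Il15ra, the receptor chain that presents Il15, read 6.22 to 6.91 on the 12 arrays and was named after its values were seen. Beside Il15, the summed lymphocyte markers read 12.46 and 12.49 in CKIα Het, 11.87 to 12.54 in CKIα KO, 12.11 to 13.16 in CKIα Het/p21 KO, 10.39 to 11.77 in CKIα KO/p21 KO, 10.89 to 12.28 in CKIα Het/p53 KO and 10.87 to 12.37 in CKIα KO/p53 KO. Of the 11 markers, 1 (Cd2, -0.34 ± 0.09, limma adjusted p = 0.0265) was called lower in the mean CKIα effect, where all 11 lay below 0 with a median of -0.50. Without p21 all 11 lay below 0, each at an unadjusted p under 0.05, with a median of -1.48 and 0 called. Without p53, where Il15 was called, 9 of the 11 lay below 0 with a median of -0.28, 1 at an unadjusted p under 0.05 and 0 called, and with p53 and p21 present 7 did, with a median of -0.11. The summed absorptive enterocyte markers were also lower in CKIα KO/p53 KO (15.78 to 15.91) than in CKIα Het/p53 KO (16.43 to 16.48). The part of either list in the Il15 result was not tested.

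Il18, the enterocyte cytokine released after cleavage by caspase 1, read 7.54 and 7.42 in CKIα Het, 7.28 and 7.51 in CKIα KO, 7.51 and 7.76 in CKIα Het/p53 KO, and 7.20 and 6.85 in CKIα KO/p53 KO. Without p53 it differed by -0.61 ± 0.16 with CKIα loss (1.53-fold lower; limma adjusted p = 0.0296), -0.31 and -0.92 between same-numbered arrays, a call lost without CKIα Het/p53 KO replicate 1 (0.0748), its replicate 2 (0.15) or CKIα KO/p53 KO replicate 2 (0.166). In CKIα Het/p21 KO it read 6.74 and 6.81 and in CKIα KO/p21 KO 6.60 and 6.67, so the 4 p21 KO arrays were the 4 lowest of 12; the other 8 read 6.85 to 7.76. Such a separation was seen in the lower direction for 0.437% of tested genes and in the higher direction for 0.138%, and for 1 and 0 of the members. The separate tests of p21 loss did not pass: -0.71 ± 0.16 in CKIα Het (limma adjusted p = 0.445) and -0.76 ± 0.16 in CKIα KO (adjusted p = 0.172). Beside Il18, the summed absorptive enterocyte markers read 16.43 to 16.48 in CKIα Het/p53 KO and 15.78 to 15.91 in CKIα KO/p53 KO. The part of these markers in the Il18 result was not tested. In the mean CKIα effect Il18 missed the threshold at -0.28 ± 0.09 (limma adjusted p = 0.0513) and passed after further quantile normalization (0.0131), or with CKIα KO/p53 KO replicate 1 left out (0.0325).

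Il1b, Il33 and Tnf were not called in any comparison. Il1b, the inflammasome-released fever cytokine, read 5.38 and 5.66 in CKIα Het, 4.58 and 3.92 in CKIα KO, 5.80 and 4.87 in CKIα Het/p21 KO, 5.54 and 4.45 in CKIα KO/p21 KO, 3.65 and 4.37 in CKIα Het/p53 KO, and 3.85 and 4.15 in CKIα KO/p53 KO. It was thus lowest in the p53 KO groups and in CKIα KO, with differences of -1.51 ± 0.42 between CKIα Het/p53 KO and CKIα Het (limma adjusted p = 0.791) and -1.27 ± 0.42 between CKIα KO and CKIα Het (adjusted p = 0.369). Il33, an alarmin stored in nuclei, ran from 5.88 to 7.90, and Tnf from 4.40 to 5.58. The mean CKIα effect on Tnf was 0.30 with a 95% interval from -0.07 to 0.67, and on Il33 0.45 with an interval from -0.15 to 1.05.

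None of the 7 CXC and 6 CC chemokines tested was called in any of the 11 comparisons, which include the effects of p53 and p21 loss described below. Cxcl1 read 4.83 to 5.60, Cxcl2 3.52 to 5.11 and Cxcl10 4.82 to 5.33 on the 12 arrays. The mean CKIα effect on Cxcl1 was -0.23 (95% interval -0.51 to 0.04) and on Cxcl10 -0.08 (-0.28 to 0.11), so increases of 2-fold lay outside both intervals. Ccl2, the monocyte chemoattractant often used to follow the secretory phenotype, read 3.96 to 4.39, with a mean effect of -0.11 (-0.27 to 0.06). The ranges of the other chemokines not detailed below were 3.31 to 3.92 for Cxcl5, 5.0 to 5.75 for Cxcl9, 3.83 to 4.03 for Cxcl12, 6.36 to 7.78 for Cxcl16, 4.39 to 4.66 for Ccl7 and 5.58 to 7.28 for Ccl9.

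The epithelial CC chemokines varied more. Ccl20, which draws Ccr6-bearing lymphocytes and dendritic cells to the gut lining, read 5.21 and 5.22 in CKIα Het, 5.32 and 6.34 in CKIα KO, 6.28 and 5.19 in CKIα Het/p21 KO, 4.94 and 5.13 in CKIα KO/p21 KO, 5.68 and 5.69 in CKIα Het/p53 KO, and 6.32 and 6.84 in CKIα KO/p53 KO. Both CKIα KO/p53 KO arrays lay above both CKIα Het/p53 KO arrays, while both CKIα KO/p21 KO arrays lay below both CKIα Het/p21 KO arrays; the differences were 0.89 ± 0.38 and -0.69 ± 0.38, and neither passed (limma adjusted p = 0.125 and 0.31). Ccl28, a mucosal chemokine for antibody-secreting cells, read 7.73 and 7.58 in CKIα Het/p21 KO against 6.90 and 5.84 in CKIα KO/p21 KO; elsewhere it read 6.65 and 7.40 in CKIα Het, 7.50 and 6.93 in CKIα KO, 6.50 and 7.20 in CKIα Het/p53 KO and 6.11 and 6.77 in CKIα KO/p53 KO. Its difference without p21 was -1.28 ± 0.41 (adjusted p = 0.104) and passed only when CKIα KO/p21 KO replicate 1 was left out. Ccl25, the small-bowel homing chemokine, had a mean CKIα effect of -0.44 ± 0.15 (adjusted p = 0.0607), which passed without CKIα Het/p21 KO replicate 2, CKIα KO/p21 KO replicate 1 or CKIα KO/p53 KO replicate 1, and with the replicate number as a term (0.0401).

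Lif was called in 3 comparisons, more than any other member: it was higher with CKIα loss in the mean effect and without p21, and lower in CKIα KO/p53 KO than in CKIα KO/p21 KO. Lif, an interleukin 6 family cytokine, read 5.03 and 4.84 in CKIα Het, 5.42 and 5.33 in CKIα KO, 5.03 and 5.03 in CKIα Het/p21 KO, 5.73 and 5.72 in CKIα KO/p21 KO, 4.87 and 4.59 in CKIα Het/p53 KO, and 4.77 and 4.68 in CKIα KO/p53 KO. The CKIα KO and CKIα KO/p21 KO arrays were the 4 highest, and the CKIα KO/p53 KO arrays overlapped their CKIα Het/p53 KO counterparts. Averaged over the backgrounds, the effect was 0.37 ± 0.08 (1.3-fold; limma adjusted p = 0.00984), 0.33 and 0.42 between same-numbered arrays. Without p21 it was 0.69 ± 0.14 (1.62-fold, adjusted p = 0.0468), 0.70 and 0.69 between same-numbered arrays. Without p53 it was -0.01 ± 0.14, and with p53 and p21 present 0.44 ± 0.14 (adjusted p = 0.349).

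Between CKIα KO/p53 KO and CKIα KO/p21 KO the Lif difference was -1.0 ± 0.14 (2.01-fold lower; limma adjusted p = 0.0212), -0.97 and -1.04 between same-numbered arrays. Lif was the one member called there, where 0.114% of genes were called higher and 0.215% lower. Against CKIα KO the difference was -0.65 ± 0.14 (adjusted p = 0.0578), and passed (0.0267) without either CKIα KO/p21 KO array or with the replicate number as a term (0.0471). The test of the CKIα effect with against without p53 gave -0.45 ± 0.20 and did not pass (adjusted p = 0.328). The call without p21 was near the threshold: it was lost after further quantile normalization (0.0508) and in 9 of the 12 fits that left out 1 array, each except those without CKIα KO replicate 1, CKIα KO replicate 2 or CKIα KO/p21 KO replicate 1. The call between the double knockouts was lost without CKIα KO/p21 KO replicate 1 (0.0683), CKIα KO/p53 KO replicate 1 (0.0507) or CKIα KO/p53 KO replicate 2 (0.113). The AP-1 match of the Lif promoter printed above lies at -228 to -222 relative to the gene start. Csf1, Csf2 and Csf3, the macrophage and granulocyte colony-stimulating factors, stayed below the array median on every array and were not called.

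Among the proteases and their regulators, Plaur, the receptor that holds urokinase at the cell surface, rose with CKIα loss in the p53 KO groups. It read 5.79 and 6.08 in CKIα Het, 5.84 and 7.09 in CKIα KO, 7.01 and 6.85 in CKIα Het/p21 KO, 6.45 and 7.07 in CKIα KO/p21 KO, 6.27 and 5.87 in CKIα Het/p53 KO, and 7.36 and 7.94 in CKIα KO/p53 KO. The CKIα KO/p53 KO arrays were the 2 highest, and the groups without p21 overlapped. The difference without p53 was 1.58 ± 0.38 (2.99-fold; limma adjusted p = 0.0224), 1.09 and 2.07 between same-numbered arrays, and without p21 -0.17 ± 0.38 (adjusted p = 0.858). The call was lost without CKIα Het/p53 KO replicate 1 (0.0774), its replicate 2 (0.116) or CKIα KO/p53 KO replicate 2 (0.128). The mean CKIα effect was 0.65 ± 0.22 (adjusted p = 0.0565), and passed without CKIα KO replicate 1 (0.00874) or CKIα KO/p21 KO replicate 1 (0.032), and with the replicate number as a term (0.0412). The ligand, urokinase itself (Plau), stayed at 3.48 to 4.03, with a mean effect of 0.06 (95% interval -0.17 to 0.29).

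Myeloid cells also carry Plaur, and 2 of 12 myeloid markers, Cd68 and Cd14, were called higher without p53 and 0 lower; 6 of the 12 lay above 0 and 6 below, with a median difference of 0.10. In that background the summed myeloid level was 8.74 to 8.93 in CKIα Het/p53 KO and 9.15 to 9.51 in CKIα KO/p53 KO, while in CKIα Het and CKIα KO it was 9.60 to 9.62 and 8.92. In the p21 KO groups it was 9.18 to 9.53 and 8.95 to 9.23. Their part in the Plaur result was not tested.

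Mmp12, macrophage elastase, fell. It read 4.31 and 4.75 in CKIα Het, 3.96 and 3.89 in CKIα KO, 4.25 and 4.20 in CKIα Het/p21 KO, 3.99 and 4.12 in CKIα KO/p21 KO, 4.24 and 4.22 in CKIα Het/p53 KO, and 3.96 and 3.51 in CKIα KO/p53 KO, below the array median throughout. All 6 CKIα KO arrays lay below all 6 CKIα Het arrays. The mean effect was -0.43 ± 0.11 (1.34-fold lower; limma adjusted p = 0.018), -0.30 and -0.55 between same-numbered arrays. In the myeloid list, Adgre1, a macrophage surface marker, was called lower in the same comparison (-0.40 ± 0.12, adjusted p = 0.0395), as was Csf1r, the macrophage growth factor receptor (-0.35 ± 0.11, adjusted p = 0.0361), while Cd68 (0.32 ± 0.10, 0.0439) and Cd14 (0.57 ± 0.12, 0.008) were called higher; of the 12 markers 4 lay above 0 and 8 below, with a median of -0.12, and their part in the Mmp12 result was not tested.

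The other proteases and inhibitors were not called. Mmp2 lay above the array median on all 12 arrays. Mmp2 read 5.35 to 5.94, Mmp3 3.36 to 3.92, Mmp9 3.60 to 4.40, Mmp10 4.05 to 4.79 and Mmp13 3.56 to 4.26. The inhibitors Timp1 and Timp2 read 3.36 to 4.08 and 4.20 to 5.05. The mean CKIα effect on Mmp9, the gelatinase of infiltrating leukocytes, was -0.16 (95% interval -0.37 to 0.05).

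Igfbp4 and Ereg, a regulator of insulin-like growth factors and a ligand of the epidermal growth factor receptor, had the largest positive mean CKIα effects of the list. Igfbp4 read 5.26 and 5.44 in CKIα Het, 5.46 and 7.99 in CKIα KO, 5.87 and 5.41 in CKIα Het/p21 KO, 7.37 and 8.83 in CKIα KO/p21 KO, 5.27 and 5.47 in CKIα Het/p53 KO, and 8.58 and 8.85 in CKIα KO/p53 KO. One CKIα KO array was at the CKIα Het level and 1 was far above it, whereas all 4 double-knockout arrays were above every CKIα Het array. Over the 3 backgrounds the effect averaged 2.39 ± 0.39 (5.25-fold; limma adjusted p = 0.00371), and the effect without p53 was 3.34 ± 0.68 (10.1-fold, adjusted p = 0.0134), with 3.31 and 3.38 between same-numbered arrays. Without p21 it was 2.46 ± 0.68 and missed the threshold (adjusted p = 0.079) unless CKIα KO replicate 1 or 2 or CKIα KO/p21 KO replicate 1 was left out; its same-numbered arrays differed by 1.50 and 3.42. With p53 and p21 present it was 1.38 ± 0.68 (limma adjusted p = 0.602), and the same-numbered arrays differed by 0.20 and 2.55.

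The p53-null call of Igfbp4 was lost without CKIα Het/p53 KO replicate 1 (limma adjusted p = 0.0793), its replicate 2 (0.0629) or CKIα KO/p53 KO replicate 2 (0.0743). The differences of the CKIα effect on Igfbp4 between backgrounds did not pass, with 1.97 ± 0.96 for p53 (adjusted p = 0.372) and 1.08 ± 0.96 for p21 (0.793). Igfbp3, itself a p53 target, ran from 4.72 to 6.11, Igfbp5 from 3.97 to 4.67 and Igfbp7 from 5.05 to 6.09, and none was called. Igfbp5 came nearest, at -0.51 ± 0.14 without p21 (adjusted p = 0.072).

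Ereg read 5.55 and 5.36 in CKIα Het, 6.48 and 6.83 in CKIα KO, 6.25 and 6.01 in CKIα Het/p21 KO, 7.51 and 8.18 in CKIα KO/p21 KO, 6.56 and 5.06 in CKIα Het/p53 KO, and 6.55 and 6.47 in CKIα KO/p53 KO. It was highest in CKIα KO/p21 KO, and the p53 KO groups overlapped because 1 CKIα Het/p53 KO array was as high as the CKIα KO/p53 KO arrays. The mean effect was 1.21 ± 0.23 (2.31-fold; limma adjusted p = 0.00653), 0.73 and 1.68 between same-numbered arrays. By background it was 1.20 ± 0.40 with p53 and p21 present (adjusted p = 0.374), 1.72 ± 0.40 without p21 (0.0572) and 0.70 ± 0.40 without p53 (0.244). The p21-null difference passed without CKIα KO/p21 KO replicate 1 (0.0173) or either CKIα Het/p53 KO array (0.0472). Vegfa ran from 8.94 and 9.37 in CKIα Het and 9.07 and 8.79 in CKIα KO to 9.40 and 9.99 in CKIα Het/p21 KO, 9.46 and 8.22 in CKIα KO/p21 KO, 8.76 and 9.21 in CKIα Het/p53 KO, and 8.02 and 8.44 in CKIα KO/p53 KO, with a mean effect of -0.61 ± 0.22 (adjusted p = 0.0664). It was called lower in that comparison only when CKIα KO/p21 KO replicate 1 was left out. Tgfb1 ran from 5.26 to 6.36 and Inhba, an activin subunit, from 3.79 to 4.32, and neither was called.

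**Figure D2:**
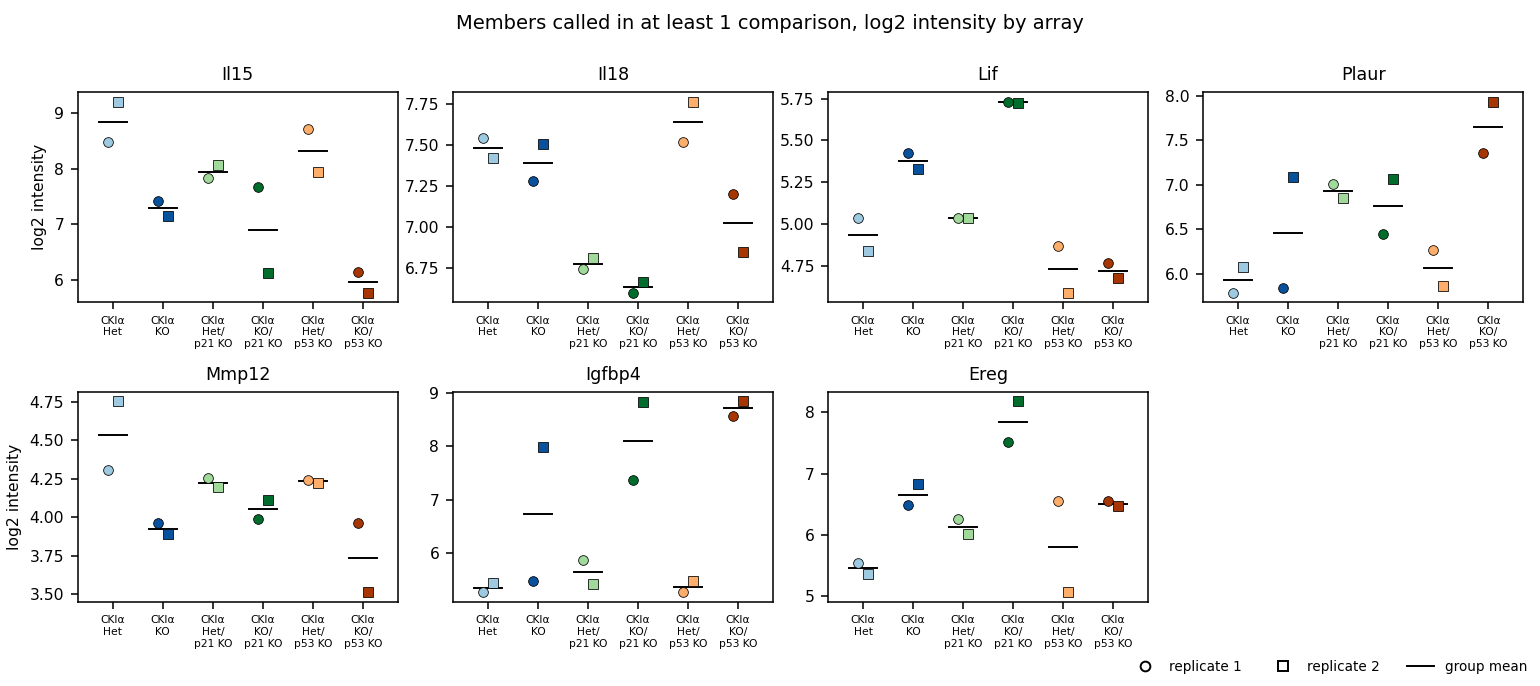
Log2 intensity (vertical axis) of the 7 members called in at least 1 comparison, on each of the 12 arrays by genotype group; circles are replicate 1, squares replicate 2 and bars group means. Il15 and Mmp12 read lower on every CKIα KO array than on every CKIα Het array, Igfbp4 reads 8.58 and 8.85 in CKIα KO/p53 KO against 5.27 and 5.47 in CKIα Het/p53 KO, and the 4 p21 KO arrays are the lowest for Il18.

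Several acute-phase and prostaglandin genes were high on single arrays and not on the other array of the group. Lcn2, a bacteriostatic siderophore binder induced in inflamed epithelium, read 6.17 on CKIα KO/p53 KO replicate 2 and 4.72 on CKIα KO/p21 KO replicate 1, against 3.55 to 4.06 on the other 10 arrays. Ptges, the enzyme that makes prostaglandin E2, read 5.98 on CKIα KO/p53 KO replicate 2 and 4.08 to 4.69 on the others. Saa3 read 5.01 on CKIα Het replicate 2, 5.27 on CKIα Het/p21 KO replicate 1 and 5.71 on CKIα KO/p21 KO replicate 1, against 3.25 to 3.52 on the other 9, so its high arrays were split between genotypes. Saa1 ran from 3.09 to 4.47. Without p53 the differences were 1.17 ± 0.60 for Lcn2 (limma adjusted p = 0.193) and 0.88 ± 0.35 for Ptges (0.103); both were called only when CKIα KO/p53 KO replicate 1, the low array, was left out.

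On the array with high Lcn2 and Ptges, CKIα KO/p53 KO replicate 2, the myeloid marker Ly6g read 7.47 and on CKIα KO/p21 KO replicate 2 4.94, against 3.09 to 3.63 on the other 10 arrays. Mpo, a neutrophil granule enzyme, read 3.96 there, within the range of 3.56 to 4.33 of all 12 arrays. Both markers were named after their values were seen, and their part in the Lcn2 and Ptges values was not tested. Ptgs2, the inducible cyclooxygenase, was highest in CKIα Het/p21 KO (6.07 and 5.39), against 5.13 and 4.88 in CKIα Het, 4.76 and 4.56 in CKIα KO, 5.01 and 4.39 in CKIα KO/p21 KO, 4.46 and 4.72 in CKIα Het/p53 KO and 4.08 and 4.78 in CKIα KO/p53 KO. Its difference without p21 was -1.03 ± 0.30 (limma adjusted p = 0.0865), passing only without CKIα KO/p21 KO replicate 1, and its mean effect was -0.51 ± 0.17 (0.0561), passing without CKIα Het/p21 KO replicate 2, CKIα KO/p21 KO replicate 1 or CKIα KO/p53 KO replicate 2. On CKIα Het/p21 KO replicate 2 the summed fibroblast and smooth muscle markers reached 10.86, the highest of 12 arrays (8.40 to 9.76 on the others), and on replicate 1, where Ptgs2 was 6.07, they were 9.64. Icam1, the leukocyte adhesion molecule, stayed between 5.71 and 6.08 with a mean effect of 0.00 (95% interval -0.18 to 0.18), and Nfkbia, the NF-κB inhibitor that NF-κB itself induces, had a mean effect of -0.01 (-0.24 to 0.23).

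**Figure D3:**
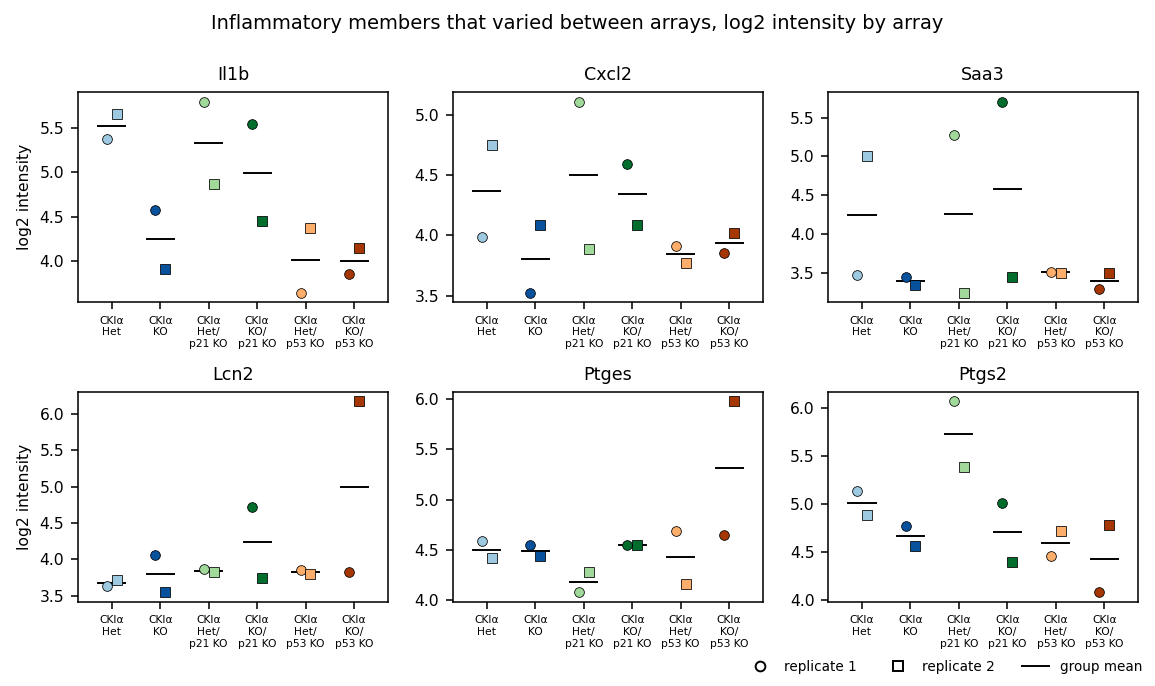
Log2 intensity (vertical axis) of Il1b, Cxcl2, Saa3, Lcn2, Ptges and Ptgs2 on each of the 12 arrays by genotype group; circles are replicate 1, squares replicate 2 and bars group means. Lcn2 (6.17) and Ptges (5.98) peak on the same CKIα KO/p53 KO array, while the high Saa3 values come from 3 groups.

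No member passed the test for loss of p53 or p21 within a CKIα genotype, except that with the replicate number as a term Lif was called lower in CKIα KO/p53 KO than in CKIα KO (limma adjusted p = 0.0471), where the genes called went from 116 to 338. Between CKIα KO/p53 KO and CKIα KO, 0 of 47 members were called (all genes 0.694%), with 11 at an unadjusted p under 0.05, among them Plaur (1.18 ± 0.38, limma adjusted p = 0.114), Igfbp4 (1.99 ± 0.68, 0.131), Il15 (-1.33 ± 0.45, 0.131) and Lif. When CKIα KO replicate 2 was left out, Cxcl16, Plaur and Igfbp4 were called higher there; Ptges and Lcn2 were without CKIα KO/p53 KO replicate 1, and Il15 and Lif were called lower without either CKIα KO/p21 KO array. Between CKIα KO/p21 KO and CKIα KO 0 were called (all genes 0.0359%), with 6 at an unadjusted p under 0.05. In the CKIα Het groups, p53 loss gave 0 called members (all genes 0%) and p21 loss 0 (all genes 0.00598%), with 1 and 4 members at an unadjusted p under 0.05. The CKIα effects with and without p53 differed for 0 members (all genes 0.0179%), and those with and without p21 for 0 (all genes 0%), with 2 and 4 members at an unadjusted p under 0.05. These comparisons share groups, so their members are not independent. The counts at an unadjusted p under 0.05 have no share of all genes beside them and are not a result about the members.

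The receptors and signalling genes around these factors moved both ways as well. Of 26 receptors of the members tested, 3 were called higher without p53 (all genes 11%) and 0 lower (6.82%): Tgfbr2, the TGF-β receptor chain that binds ligand (3.09 ± 0.48, 8.51-fold, limma adjusted p = 0.00771), its partner Tgfbr1 (0.68 ± 0.15, 0.0161) and the TNF receptor Tnfrsf1b (1.13 ± 0.23, 0.0134). Tgfbr2 read 5.53 and 6.15 in CKIα Het/p53 KO and 8.85 and 9.01 in CKIα KO/p53 KO. Without p21, 1 receptor was called lower (all genes 0.514%), Il1r2, the decoy that captures interleukin 1 (-0.95 ± 0.19, limma adjusted p = 0.0481), and 0 higher (1.46%). In the mean CKIα effect 2 receptors were called higher (all genes 15.5%) and 5 lower (8.96%), with a list median of -0.16 (all genes -0.03).

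Of 27 genes of NF-κB and cytokine signalling tested, 1 was called higher without p53 (all genes 11%), the bacterial lipopeptide sensor Tlr2 (2.11 ± 0.53, limma adjusted p = 0.0259), and 3 lower (6.82%). Casp1, the caspase that cleaves the Il1b and Il18 precursors, fell by 0.88 ± 0.13 (adjusted p = 0.00763), Nfkbiz, an inducible nuclear NF-κB cofactor, by 0.72 ± 0.18 (0.0276) and Fos, an AP-1 subunit, by 0.75 ± 0.20 (0.0291). Casp1 read 9.26 and 9.07 in CKIα Het/p53 KO and 8.37 and 8.21 in CKIα KO/p53 KO, the 2 lowest of 12 arrays, and was also lower there than in CKIα KO (-0.73 ± 0.13, adjusted p = 0.0487). Il18 and its processing enzyme Casp1 were both called lower with CKIα loss without p53, where 6.82% of all tested genes were called lower. A link between the 2 was not tested. In the mean CKIα effect 3 of the 27 were called higher (all genes 15.5%) and 7 lower (8.96%), with a median of -0.05 (all genes -0.03).

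Other genes of senescence and inflammation formed a list chosen with earlier results of these data known. Its share of calls beside that of all genes therefore does not measure an enrichment. The list holds membrane and intracellular proteins beside secreted ones, and 22 of its genes were tested. Between CKIα KO and CKIα Het 2 were called higher and 0 lower (all genes 0.0239% in either direction), both not secreted: the membrane oxidase Duox2 (3.87 ± 0.33, limma adjusted p = 0.00381) and its maturation factor Duoxa2 (4.02 ± 0.33, 0.00381), and without p53 7 were called higher (all genes 11%) and 0 lower (6.82%). These included Plat, tissue plasminogen activator (4.24 ± 0.46, 18.9-fold), Mmp14, a membrane-bound collagenase (2.06 ± 0.38), and Il1rn, the interleukin 1 receptor antagonist (2.77 ± 0.59, 6.8-fold). Il1rn read 5.58 and 5.44 in CKIα Het/p53 KO and 8.27 and 8.28 in CKIα KO/p53 KO, where Il1b, which it opposes, read 3.65 and 4.37 and 3.85 and 4.15; Il1rn was named after its values were seen. In the mean CKIα effect 7 of the 22 were called higher (all genes 15.5%) and 1 lower (8.96%), with a median of 0.24 (all genes -0.03).

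**Figure D4:**
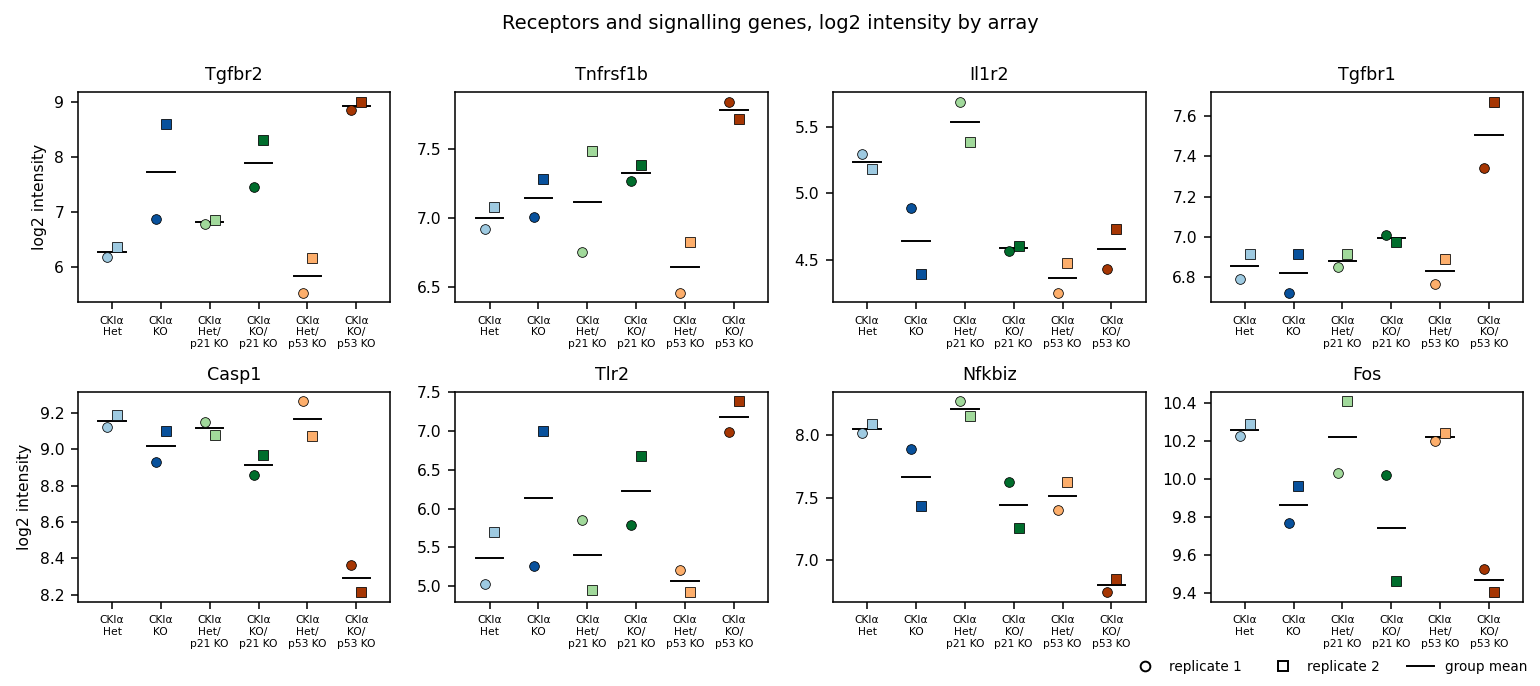
Log2 intensity (vertical axis) of 4 receptors (Tgfbr2, Tnfrsf1b, Il1r2, Tgfbr1) and 4 signalling genes (Casp1, Tlr2, Nfkbiz, Fos) on each of the 12 arrays by genotype group; circles are replicate 1, squares replicate 2 and bars group means. In CKIα KO/p53 KO, Tgfbr2 reads 8.85 and 9.01 and Casp1 8.37 and 8.21, the highest and the lowest pair of the 6 groups.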

How the data were processed

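RNA of 13 enterocyte samples was labelled with biotin and hybridised to 1 Affymetrix array each, and 12 arrays in 6 groups of 2 were compared. Per the labels' protocols, the authors used the RMA Sketch method of Affymetrix Expression Console 1.1 and then normalized by median intensity. The deposited intensity values were taken to be on a log2 scale from their range, since no label names the base. Precision is set by the number of arrays.

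Symbols were taken from the platform annotation: of 35556 probe sets, 21789 carried 1 symbol, 1621 several and 12146 none, and only the first were used. A gene with several such probe sets (1 member, Ccl25) was represented by the one with the highest mean over the 12 arrays. All 52 measured members matched the RefSeq table of GRCm38.p6. Genes with at least 2 of 12 arrays above the array's own 25th percentile were tested, 16721 in all.

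The test was limma 3.58.1 in R 4.3.3 (lmFit, eBayes; 6 group means, 6 residual and 3.80 prior degrees of freedom), two-sided, with Benjamini-Hochberg adjustment over all tested genes within each of 11 comparisons and 95% intervals. It was tested on simulated data. Errors are standard errors of the fit, which pools the spread of the 6 groups; p-values measure the spread between the 2 arrays of a group. Alternatives were further quantile normalization, an intensity trend in eBayes, no filter, the mean of a gene's probe sets, a replicate block and leaving out each array. The array titled CKIα KO/p53 KO (3), whose other labels name CKI KO, entered no comparison. Every member is named or counted; per-array values are given for those called or with group means more than 1 apart, and genes of other lists where called, at most 4 a list, with the exceptions stated. The members and lists were chosen with earlier results of these data known.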

Additional observations from a re-analysis of the deposited data

Results flagged for a closer look

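The array titled CKIα KO/p53 KO (3), whose source and genotype labels name CKI KO, was in no comparison. Cxcl10, Cxcl9 and Igfbp4 are named because they exceeded the highest CKIα Het array by more than 1 there. How many of all genes did so was not counted, so the excess does not set the members apart. Cxcl10 read 6.75 there against 4.82 to 5.33 on the 12 compared arrays, and Cxcl9, also induced by interferon γ, read 6.52 against 5.0 to 5.75. Igfbp4 read 7.76, above all 6 CKIα Het arrays (5.26 to 5.87). On the same array Il15 read 6.44, below all 6 CKIα Het arrays, and Lif 5.19. Single values on 1 array have no replicate.

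In 7 of the 47 tested members, beside 3.8% of all tested genes, the CKIα KO and CKIα Het arrays did not overlap in either null background and differed in opposite directions. That is, both CKIα KO arrays lay on one side of both CKIα Het arrays without p53 and on the other side without p21. Mmp3, Mmp10 and Igfbp5 among them read below the array median on every array. The differences without p53 were 0.89 for Ccl20, 0.40 for Cxcl16, 0.40 for Timp2, 0.13 for Mmp2, 0.11 for Igfbp5, -0.13 for Mmp3 and -0.29 for Mmp10. The contrast between the p53-null and p21-null effects was not tested, and none of these differences passed the test by itself.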

How the results depend on the processing

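The 68 gene comparisons with an unadjusted limma p under 0.05 in the main fit were followed over 17 alternative settings. Of the results, 1098 kept the direction and side of the threshold, 24 no longer passed, 34 newly passed and 0 reversed. Comparisons picked by that p-value are unlikely to reverse. The intensity trend, the replicate block and leaving out an array of a group outside the comparison do not change the difference. The 0 is therefore no test of the direction. With further quantile normalization the p21-null count of members called higher went from 1 to 0. Replicate numbers were shared by the groups, and Xist was low on every replicate 1 array and high on every replicate 2 array. Over all tested genes, same-numbered arrays deviated together only weakly. Over 15 pairs of groups the correlation ran from -0.16 to 0.25 (median 0.07, 5 over 0.1). That weak correlation does not show that replicate differences are absent for single genes. The main fit has no replicate term, so such differences enter its error. With a replicate block, member calls over all comparisons went from 11 to 14, with 1 member (Lif, limma adjusted p = 0.0471) called lower in CKIα KO/p53 KO than in CKIα KO, and Ccl25 (0.0401) and Plaur (0.0412) called in the mean effect; genes called between CKIα KO/p53 KO and CKIα KO went from 116 to 338 and between CKIα KO and CKIα Het from 4 to 2. Leaving out 1 array at a time gave 0 to 3 members higher and 0 to 5 lower without p21, 0 to 4 and 0 to 2 without p53, 3 to 5 and 2 to 7 in the mean effect, 0 to 3 and 0 to 2 between CKIα KO/p53 KO and CKIα KO, and 0 to 1 and 0 to 1 between the double knockouts; the cause was not tested. Where an arm was left with 1 array, it was assumed to vary like the other groups. Signal was low for the 22 members below the array median on every array, 5 of which were not tested; no background level was measured.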
